A study of Mus musculus with 2 samples.

Results

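The 10 genes described here encode the interleukin 1 (IL-1) pathway and the inflammasome that feeds it. They are the ligands Il1b, Il1a, and Il18, the antagonists Il1rn and Il18bp, the receptors Il1r1 and Il1r2, and the inflammasome genes Nlrp3, Casp1, and Casp4. They were chosen by name from the feature list, all 10 were found among its 20299 genes, and their unique molecular identifiers (UMIs, one per captured RNA molecule) were summed by cluster and by mouse. The samples are 2 libraries of droplet-based single-cell RNA sequencing of kidneys with nephrotoxic serum nephritis (NTN), 1 from WT mice and 1 from Vsir-/- mice. Both groups were C57BL/6 mice, 8 weeks of age, that received 200 μg of sheep IgG in Freund's complete adjuvant and, 4 days later, sheep serum against the glomerulus (2 μL per g of body weight by the labels, a dose that the study's methods give differently). Vsir encodes VISTA, an inhibitory receptor of the immune checkpoint family. Neither library came from a mouse without NTN, and the number of mice per library is not given in the sources used here. According to the labels, the WT library holds sorted CD45+ cells, whereas the Vsir-/- library holds kidney cells of all kinds, although the methods of the study describe a CD45+ sort.

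In total, 32799550 UMIs were counted in 5470 cells of WT mice and 18601189 UMIs in 1844 cells of Vsir-/- mice. With 1 library per genotype, no test between genotypes was possible. Levels are given as UMIs per 1000000 UMIs of the same cells (CPM). All intervals are exact 95% intervals that cover counting error only, not the variation between cells or between mice. The targeted gene Vsir had 4278 UMIs (130 CPM) in the WT library and 8 UMIs (0.430 CPM) in the Vsir-/- library. The libraries also differed in other ways that touch the values below. A Ptprc UMI, the transcript of CD45, was found in 94.2% of WT cells and in 73.6% of Vsir-/- cells. A list of 13 kidney tubule genes summed to 4.88 CPM in the WT library and to 5384 CPM in the Vsir-/- library, where 1843 of 1844 cells carried at least 1 such UMI. In the macrophage clusters, a list of 7 neutrophil genes summed to between 1744 and 4341 CPM in the WT library and to between 132 and 244 CPM in the Vsir-/- library. A list of 5 B cell genes summed there to between 891 and 3716 CPM (WT) and to between 14.2 and 63.7 CPM (Vsir-/-), and one of 6 T cell genes to between 310 and 574 CPM and to between 6.47 and 40.0 CPM. The part of these differences in the results for macrophages was not tested. The libraries shared 5 cell barcodes.

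IL-1β and IL-18 are made as inactive precursors. A priming signal first raises transcription of Il1b and Nlrp3, and the sensor NLRP3 then assembles an inflammasome in which caspase-1 cuts the precursors and gasdermin D. Caspase-11, encoded by Casp4 in the mouse, senses cytosolic lipopolysaccharide and cuts gasdermin D as well. IL-1α and IL-1β signal through the receptor encoded by Il1r1, the product of Il1rn occupies that receptor without signalling, the product of Il1r2 is a decoy that binds ligand without a signalling tail, and the product of Il18bp captures IL-18 in solution. In glomerulonephritis, IL-1 is known as an early cytokine of infiltrating myeloid cells. Transcripts, which are all that was measured here, do not show whether a precursor was cut or released.

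The genes of both IL-1 agonists lie close together on mouse chromosome 2, on the same strand, and Il1b had the most UMIs of the list in both libraries and Il1a the fewest. The 250 bases before their annotated starts are printed to show what these neighbours share, and those of Nlrp3, the sensor whose levels over clusters were most like those of Il1b among the members, stand beside them. The windows are from RefSeq (GRCm38.p6, 5′ to 3′ on the strand of the gene). They are chr2:129371140-129371389 on the minus strand for Il1b, chr2:129309973-129310222 on the minus strand for Il1a, and chr11:59542436-59542685 on the plus strand for the second of 2 annotated starts of Nlrp3. Capitals mark matches on either strand to the TATA box TATAAA, to the AP-1 motif TGANTCA, and to the PU.1 core GAGGAA, none of which overlapped in these windows.
Il1b: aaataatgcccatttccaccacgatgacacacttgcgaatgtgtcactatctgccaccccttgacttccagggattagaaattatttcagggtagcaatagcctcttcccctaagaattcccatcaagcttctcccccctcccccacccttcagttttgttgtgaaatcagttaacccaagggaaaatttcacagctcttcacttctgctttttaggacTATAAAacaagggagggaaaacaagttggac
Il1a: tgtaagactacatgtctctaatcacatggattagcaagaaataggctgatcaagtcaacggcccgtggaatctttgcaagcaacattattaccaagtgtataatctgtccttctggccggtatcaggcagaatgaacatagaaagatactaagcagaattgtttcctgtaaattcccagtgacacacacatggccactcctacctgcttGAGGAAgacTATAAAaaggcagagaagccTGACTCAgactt
Nlrp3: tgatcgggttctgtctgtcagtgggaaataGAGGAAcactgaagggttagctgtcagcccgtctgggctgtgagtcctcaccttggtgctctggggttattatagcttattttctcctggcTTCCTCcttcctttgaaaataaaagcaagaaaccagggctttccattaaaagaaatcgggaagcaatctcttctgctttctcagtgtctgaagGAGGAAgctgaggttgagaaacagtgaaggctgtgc
TATAAA lay 31 to 26 bases before the start in Il1b and 32 to 27 bases before it in Il1a. The window of Il1a also held GAGGAA and TGANTCA within its last 41 bases, whereas the window of Il1b held neither. The Nlrp3 window held GAGGAA at 3 positions and no TATAAA. All 10 members were matched to the RefSeq promoters, with 15 windows, since Il1rn has 3 and Il1r1, Nlrp3, and Casp4 have 2 each. In at least 1 window, TATAAA was found in 3 members (Il1b, Il1a, and Il18) and in 12.4% of all 32851 windows searched, TGANTCA in 2 members (Il1a and Il1rn) and 6.75%, and GAGGAA in 3 members (Il1a, Nlrp3, and Casp1) and 23.3%. The C/EBP motif TTGCNNAA was found in 2 members (Il18bp and Il1r1) and 9.56%, the NF-κB motif GGGANNNNCC in 3 members (Il1rn, Nlrp3, and Casp4) and 17.6%, and the IRF motif GAAANNGAAA in 0 members and 2.98%. The TATAAA of Il18 lay at −175 to −170 from its start, farther away than in Il1b and Il1a. Members were counted over any of their windows and the percentages over single windows, so these rates are unlike. These are matches of letters and not sites of binding.

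Il1b was counted with 20609 UMIs in the WT library and 6759 in the Vsir-/- library. In neutrophils, Il1b stood at 6436 CPM (interval 6336–6536) in 524 WT cells and at 4372 CPM (interval 4226–4521) in 158 Vsir-/- cells, a log2 ratio of Vsir-/- over WT of −0.56 (interval −0.61 to −0.50). Neutrophils held 77.5% of all Il1b UMIs of the WT library and 50.3% of those of the Vsir-/- library. The transcript was spread over nearly all neutrophils. The median neutrophil carried 26 Il1b UMIs in the WT library and 17 in the Vsir-/- library, and 94.3% and 93.0% of the cells had at least 1.

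Macrophages came next, and here the clusters did not move together. The authors distinguished kidney-resident macrophages (R1) from infiltrating macrophages (R2), and they split the latter into M2-like R2 and Other R2. A list of 5 nonclassical monocyte genes summed to 3758 CPM (WT) and 4681 CPM (Vsir-/-) in Other R2, against between 1122 and 1498 CPM in R1 and M2-like R2. A list of 8 macrophage genes was lowest in Other R2, at 8038 and 8968 CPM, against 12796 CPM or more in R1 and M2-like R2. In the WT library, Il1b stood at 728 CPM (interval 666–794) in 116 R1 cells, at 673 CPM (interval 649–698) in 456 M2-like R2 cells, and at 588 CPM (interval 547–631) in 188 Other R2 cells. The intervals of R1 and M2-like R2 overlapped, and Other R2 lay just below both. In the Vsir-/- library, Other R2 led the macrophages with 1355 CPM (interval 1274–1440) in 131 cells, followed by M2-like R2 with 560 CPM (interval 525–597) in 168 cells and R1 with 431 CPM (interval 399–464) in 237 cells, and no interval of these 3 overlapped another. Il1b was thus 2.31-fold higher in Other R2 of the Vsir-/- library (log2 ratio 1.20, interval 1.07–1.34), 1.69-fold lower in R1 (−0.76, interval −0.92 to −0.59), and 1.20-fold lower in M2-like R2 (−0.27, interval −0.37 to −0.16).

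**Figure D1:**
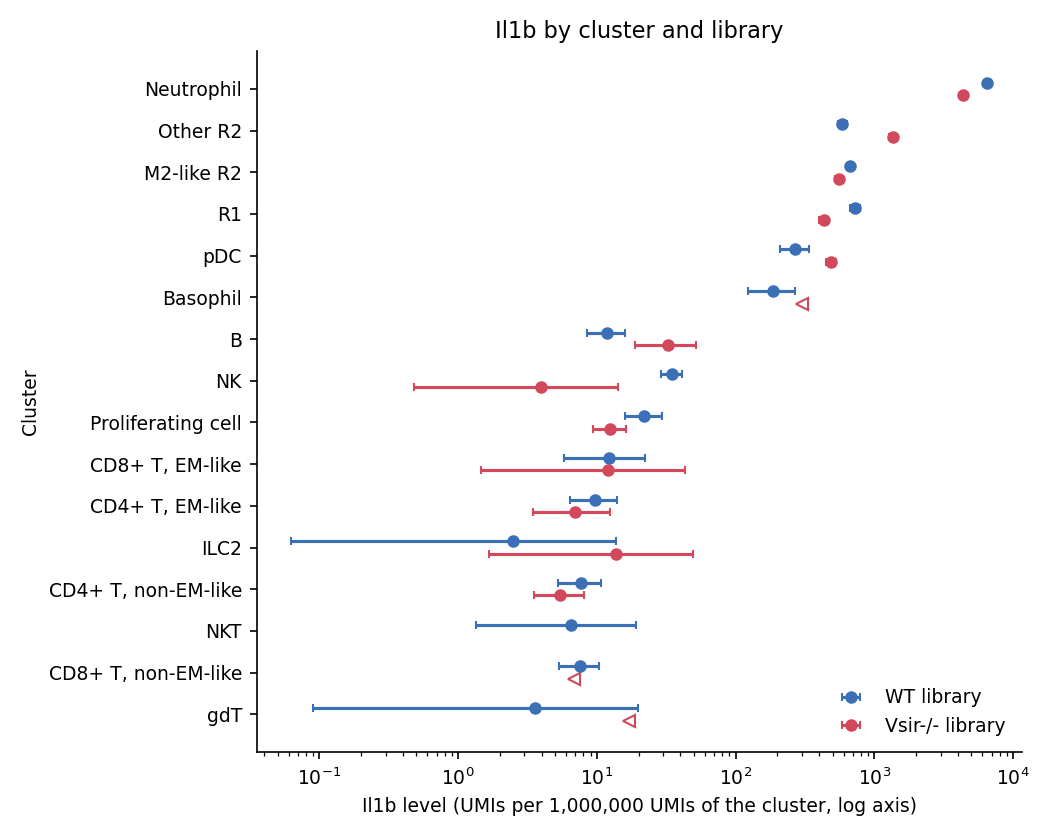
Level of Il1b in each cluster (CPM, log axis) in the WT library (blue) and the Vsir-/- library (red), with exact Poisson intervals. Open triangles mark the level of 3 counts where a library had 0 UMIs; neutrophils stand at 6436 and 4372 CPM, and Other R2 is the macrophage cluster in which the red point lies to the right of the blue one.

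The difference in Other R2 was seen across its cells. The median cell there carried 1 Il1b UMI in the WT library and 4 in the Vsir-/- library, and the upper quartile of cells began at 824 and 2000 CPM. In M2-like R2 and R1, the distributions were skewed toward few cells. The median cell of M2-like R2 carried 1 UMI in both libraries, and the cells at the 90th percentile stood at 2096 CPM (WT) and 1802 CPM (Vsir-/-). The median R1 cell carried 1 UMI in the WT library and 0 in the Vsir-/- library. After each cell was thinned to 1000 UMIs, which left out 167 WT and 78 Vsir-/- cells with fewer, Il1b was found in 35.0% and 58.3% of Other R2 cells, in 30.3% and 22.6% of M2-like R2 cells, and in 39.4% and 19.8% of R1 cells. Without thinning, the corresponding shares were 67.6% and 80.9%, 58.8% and 53.0%, and 61.2% and 46.4%. In the B cell cluster, where B cells should lack the transcript, the share was 3.61% and 6.82% (1.27% and 2.78% after thinning). Median depths there were 3426 and 3596.5 UMIs per cell, against 5210 and 6093 in Other R2. In this B cell cluster, 100% of WT and 52.3% of Vsir-/- cells had a UMI of the 5 B cell genes. A list of 8 macrophage genes summed there to 256 and 865 CPM, so the Vsir-/- share is not a background of B cells alone.

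Because neutrophils carried so much Il1b, the neutrophil transcripts S100a8 and S100a9, which together encode calprotectin, were counted beside it in every cluster. In the WT library, Il1b was 2.61% (interval 2.57–2.65%) of the UMIs of the 3 genes in WT neutrophils, 3.58% (interval 2.49–4.97%) in non–EM-like CD4+ T cells, 4.47% (interval 3.23–6.02%) in B cells, and 9.25% (interval 7.79–10.9%) in NK cells, where 1 cell held 60 of the 130 Il1b UMIs. Il1b stood at no more than 34.6 CPM in these lymphocytes, and the source of these UMIs was not tested. In Vsir-/- clusters named for lymphocytes, the shares were less certain, at 31.5% (interval 19.5–45.6%, 17 Il1b UMIs) in the B cell cluster and 9.23% (interval 6.06–13.3%) in the non–EM-like CD4+ cluster. In that B cell cluster, 52.3% of cells had a UMI of the 5 B cell genes, and 1 cell held 9 of the 17 Il1b UMIs. In that CD4+ cluster, 14 of 25 Il1b UMIs lay in 233 cells without a UMI of the 6 T cell genes. Il1b stood at 4.14 CPM in these cells and at 9.02 CPM in the 116 cells with such a UMI. In macrophages, the share was 30.7% in R1, 14.2% in M2-like R2, and 14.7% in Other R2 of the WT library, and 81.9%, 77.5%, and 91.3% in the Vsir-/- library. If all S100a8 and S100a9 UMIs of a cluster had brought Il1b along in the ratio of neutrophils of the same library, they would have carried 6.04%, 16.2%, and 15.6% of the Il1b UMIs of WT R1, M2-like R2, and Other R2, and between 0.161% and 0.490% of those of the Vsir-/- clusters. With these UMIs taken off, a calculation chosen after the values were seen, Il1b in M2-like R2 stood at 564 and 557 CPM, so that the log2 ratio of −0.27 became −0.02. The ratio in Other R2 became 1.45, and that in R1 became −0.67. Infiltrating monocytes can transcribe S100a8 and S100a9 themselves, and the source of these UMIs was not tested.

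**Figure D2:**
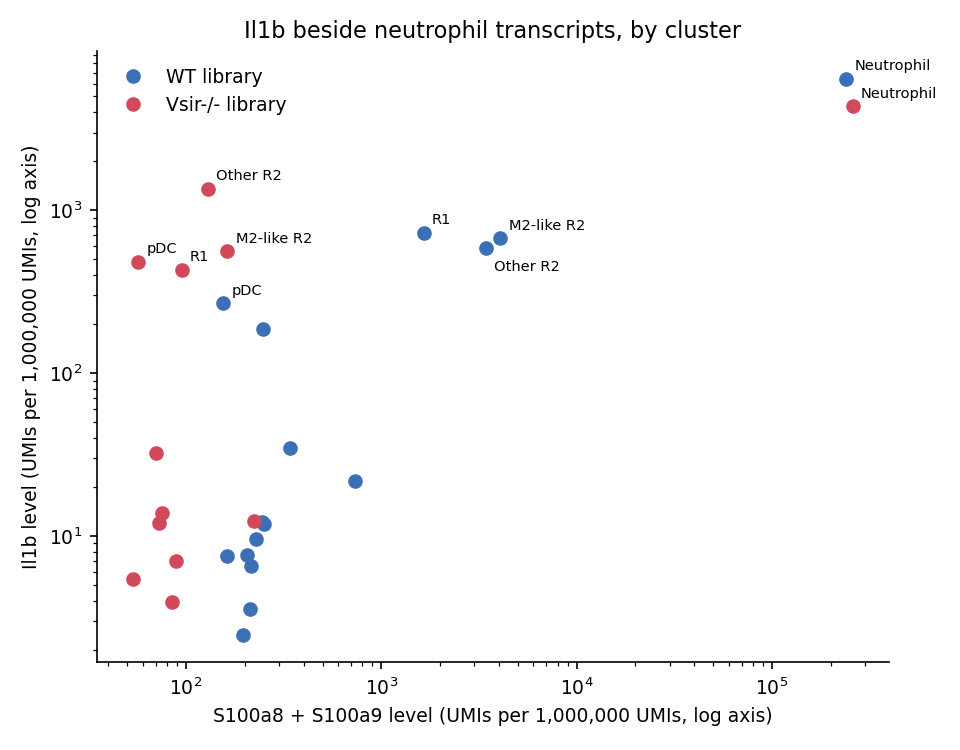
Level of Il1b (CPM) against the summed level of S100a8 and S100a9 (CPM) on log axes, with 1 point per cluster and library that had UMIs of both. S100a8 plus S100a9 stood between 1645 and 4065 CPM in the 3 WT macrophage clusters (blue) and between 94.9 and 163 CPM in those of the Vsir-/- library (red), whereas Il1b spanned 588 to 728 CPM and 431 to 1355 CPM.

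Outside these clusters, Il1b was found mainly in the cluster named pDC, at 268 CPM (interval 209–338) in 21 WT cells and at 484 CPM (interval 445–526) in 86 Vsir-/- cells. Here 1 cell of the Vsir-/- library held 166 of the 573 UMIs. A list of 4 plasmacytoid (pDC) genes was highest in this cluster, at 2002 CPM (WT) and 1421 CPM (Vsir-/-), against at most 1047 CPM in any other. It also carried the highest level of 5 conventional dendritic cell genes, which summed to 521 CPM (WT) and 791 CPM (Vsir-/-) against at most 122 CPM in any other cluster. Its name may therefore not cover all of its cells. The 8 macrophage genes summed in this cluster to 2187 CPM (WT) and 1128 CPM (Vsir-/-), against 8038 CPM or more in the macrophage clusters. Which of its cells the Il1b UMIs belong to was not tested. In WT basophils, 24 of 27 Il1b UMIs came from 1 cell.

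Il1a, the gene of the other IL-1 agonist, was close to absent. It had 0 UMIs in the WT library, which allows up to 0.0915 CPM, and 26 UMIs (1.40 CPM, interval 0.913–2.05) in 13 cells of the Vsir-/- library. Of these, 16 lay in 5 cells of M2-like R2 and 6 in 4 cells of R1. The M2-like R2 level of 9.55 CPM (interval 5.46–15.5) was 14.0-fold the level of the 3 counts that the WT cluster allows. The exact lower limit of the ratio, which also covers the counting error of the 16 UMIs, was 10.1-fold. This rested on few and deep cells. The 5 cells had a median of 20450 UMIs, 1 of them held 7 of the 16 UMIs, and without the 5% deepest cells of each cluster the bound on the log2 ratio was 0.78 in place of 3.81. The other 4 UMIs lay in 4 cells of the non–EM-like CD4+ and proliferating clusters.

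Il18, whose product drives interferon-γ in T and NK cells, was highest in the macrophage clusters M2-like R2 and R1 in both libraries. It stood at 58.5 CPM (interval 51.6–66.1) in M2-like R2 of the WT library and at 48.9 CPM (interval 38.9–60.8) in the Vsir-/- library. R1 had 30.2 and 25.6 CPM, and Other R2 had 10.1 and 11.6 CPM. Between them, the cluster named pDC had 22.7 CPM (interval 8.32–49.3, 6 UMIs) and 19.4 CPM (interval 12.3–29.2, 23 UMIs). The log2 ratio in M2-like R2 was −0.26 (interval −0.63 to 0.11), so a difference was not detectable at this depth. In neutrophils, which led Il1b, only 16 and 3 Il18 UMIs were counted.

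The antagonist Il1rn followed Il1b into neutrophils and infiltrating macrophages. Neutrophils had 132 CPM (interval 118.3–147) in the WT library and 136 CPM (interval 112–165) in the Vsir-/- library, a log2 ratio of 0.05 (interval −0.28 to 0.37). In Other R2, Il1rn stood at 10.9 CPM (14 UMIs in 9 cells) in the WT library and at 62.1 CPM (48 UMIs in 30 cells) in the Vsir-/- library, a log2 ratio of 2.51 (interval 1.62–3.48). No cell of either library held more than 5 of these UMIs. In this cluster, B cell genes stood at 3400 and 14.2 CPM and T cell genes at 320 and 6.47 CPM. In M2-like R2, Il1rn stood at 24.6 CPM (interval 20.2–29.7) and 50.1 CPM (interval 40.0–62.1), a log2 ratio of 1.03 (interval 0.60–1.45). A single Vsir-/- cell held 33 of the 84 UMIs there, and without the highest cell of each library the log2 ratio was 0.49. The same cluster contained the 5 cells with Il1a, which carried 34 of its Il1rn UMIs, and without them the ratio was 0.36. In R1, Il1rn had 3 and 7 UMIs, so that resident macrophages had Il1b with almost no Il1rn.

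Within the same cells, the share of Il1rn among UMIs of the 2 genes was compared between libraries and clusters, since 3′ counts of different genes do not give their relative amounts. In neutrophils, it made up 2.01% (interval 1.80–2.24%) of Il1rn plus Il1b UMIs in the WT library and 3.03% (interval 2.48–3.65%) in the Vsir-/- library. The shares were 3.52% (interval 2.90–4.24%) and 8.22% (interval 6.61–10.1%) in M2-like R2, and 1.83% (interval 1.001–3.04%) and 4.38% (interval 3.25–5.77%) in Other R2. With all cells counted, the interval of the Vsir-/- library lay above that of the WT library in all 3 of these clusters. In R1, the shares of 0.589% (interval 0.122–1.71%) and 1.004% (interval 0.405–2.06%) overlapped. In M2-like R2, this separation rested on few cells, since 1 Vsir-/- cell held 33 of the 84 Il1rn UMIs. Without the 5 cells with Il1a, 50 Il1rn and 903 Il1b UMIs remained, so a separation cannot be claimed for the other cells of this cluster. Without the 5% deepest cells, the share of the Vsir-/- library was 5.09%, below its interval of 6.61–10.1%.

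**Figure D3:**
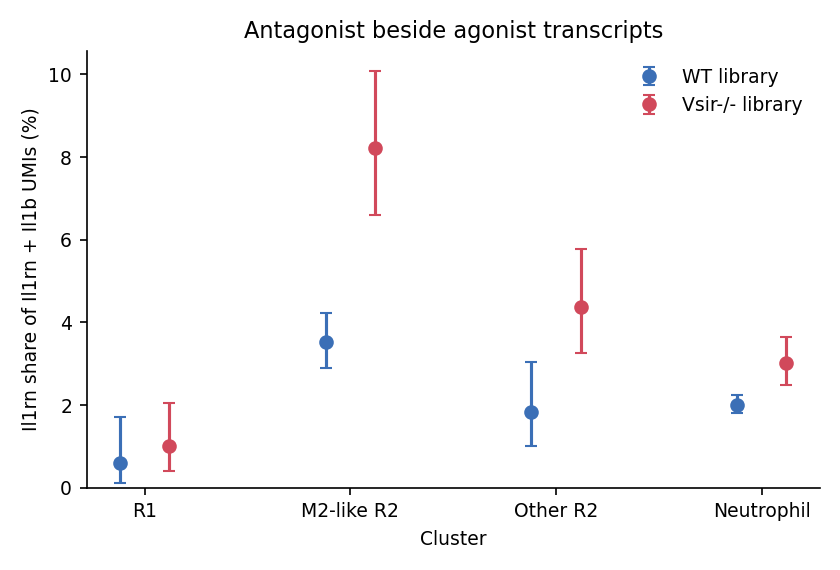
Share of Il1rn among Il1rn plus Il1b UMIs (%) in the 4 myeloid clusters, with exact Clopper-Pearson intervals, in the WT library (blue) and the Vsir-/- library (red). The share is 2.01% and 3.03% in neutrophils and 3.52% and 8.22% in M2-like R2.

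Il18bp, the soluble antagonist of IL-18, was higher in R1 of the Vsir-/- library. It stood at 18.7 CPM (interval 9.96–32.0, 13 UMIs) in the WT library and at 53.7 CPM (interval 43.0–66.3, 86 UMIs) in the Vsir-/- library, a log2 ratio of 1.52 (interval 0.67–2.49). The UMIs lay in 12 and 49 cells, of which 1 Vsir-/- cell held 13. In neutrophils, the levels of 29.4 and 30.9 CPM differed by less than the counting error. Il18bp was also counted in clusters of the Vsir-/- library that are not named for myeloid cells, where 69 UMIs fell to the non–EM-like CD4+ T cell cluster and 57 in proliferating cells, against 8 and 3 UMIs in the WT library. Of the 69 UMIs, 45 lay in 233 cells without a UMI of 6 T cell genes, which carried 13972 CPM of tubule transcripts. These cells were most of the cluster, and Il18bp was not higher in them. It stood at 13.3 CPM (interval 9.72–17.8) there and at 19.7 CPM (interval 12.6–29.3) in the 116 cells with such a UMI. Ptprc stood at 320 CPM in these 116 cells, against 948 CPM in the WT cells of this cluster, and how many were T cells was not tested. For R1, the tubule list stood at 24.5 and 2045 CPM and the endothelial list at 34.5 and 770 CPM in the WT and Vsir-/- library. The ratio was 1.53 without cells in which tubule transcripts exceeded 1% of UMIs, 0.91 without the 5% deepest cells, and 0.36 at 1000 UMIs per cell, where few Il18bp UMIs remain.

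Il1r1, the signalling receptor, was rare, and in the WT library it lay mainly in T cells. γδ T cells had 114 CPM (interval 78.0–161, 32 UMIs in 17 of 46 cells) in the WT library and 107 CPM (interval 64.5–167, 19 UMIs in 12 of 28 cells) in the Vsir-/- library, a log2 ratio of −0.09 (interval −0.99 to 0.77). In the WT library, EM-like CD4+ T cells followed with 6.78 CPM (19 UMIs, 6 of them in 1 cell). In the Vsir-/- library, they had 6.34 CPM, below proliferating cells (14.2 CPM) and the non–EM-like CD4+ cluster (13.1 CPM). The γδ and EM-like CD4+ T cell clusters held 51 of the 55 Il1r1 UMIs of the WT library. In the Vsir-/- library, the total was 161 UMIs, and most lay in clusters at 0 in the WT library, since 60 were counted in the non–EM-like CD4+ T cell cluster and 63 in proliferating cells. Of those, 38 and 50 lay in cells without a UMI of the 6 T cell genes, in which Ptprc stood at 6.81 and 15.3 CPM. Il1r1 stood at 11.2 and 16.7 CPM in these cells. In the cells of the same clusters with such a UMI, Il1r1 stood at 18.0 and 9.01 CPM, so it was not confined to cells without T cell transcripts. Ptprc stood at 320 and 413 CPM in these Vsir-/- cells, against 948 and 1020 CPM in the WT cells with such a UMI. A single UMI placed a cell in this group, and how many of these cells were T cells was not tested. The 86 Vsir-/- cells with Il1r1 outside γδ T cells carried 3458 CPM of 4 endothelial genes, against 1226 CPM over the library, and 60 of them had such a UMI. In the same cells, 4 stromal genes summed to 332 CPM against 135 CPM over the library (38 of 86 cells), and the tubule list to 3567 CPM against 5384 CPM. The 14 such WT cells carried 59.8 CPM of the endothelial genes and 0 CPM of the others. Endothelial and stromal cells are known sites of Il1r1, and the part of each in these counts was not tested.

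Il1r2, the decoy receptor, was the member most restricted to neutrophils, which held 86.8% of its UMIs in the WT library and 85.1% in the Vsir-/- library. Its level there was 450 CPM (interval 424–477) and 524 CPM (interval 474–577), a log2 ratio of 0.22 (interval 0.05–0.38) that turned to −0.05 at 1000 UMIs per cell. In macrophages, Il1r2 was lower in the Vsir-/- library, with 15 and 3 UMIs in R1, 90 and 19 in M2-like R2, and 18 and 3 in Other R2. Few cells held them, since 1 cell had 8 of the 15 WT UMIs in R1 and 1 had 11 of the 18 in Other R2. The neutrophil list moved the same way in these clusters. The UMI sources were not tested. At the neutrophil ratio to S100a8 and S100a9, 14.3% of the WT UMIs in R1, 37.1% in M2-like R2, and 45.5% in Other R2 would be accounted for. With them taken off, the log2 ratio went from −3.53 to −3.46 in R1, from −0.85 to −0.23 in M2-like R2, and from −1.86 to −1.08 in Other R2.

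**Figure D4:**
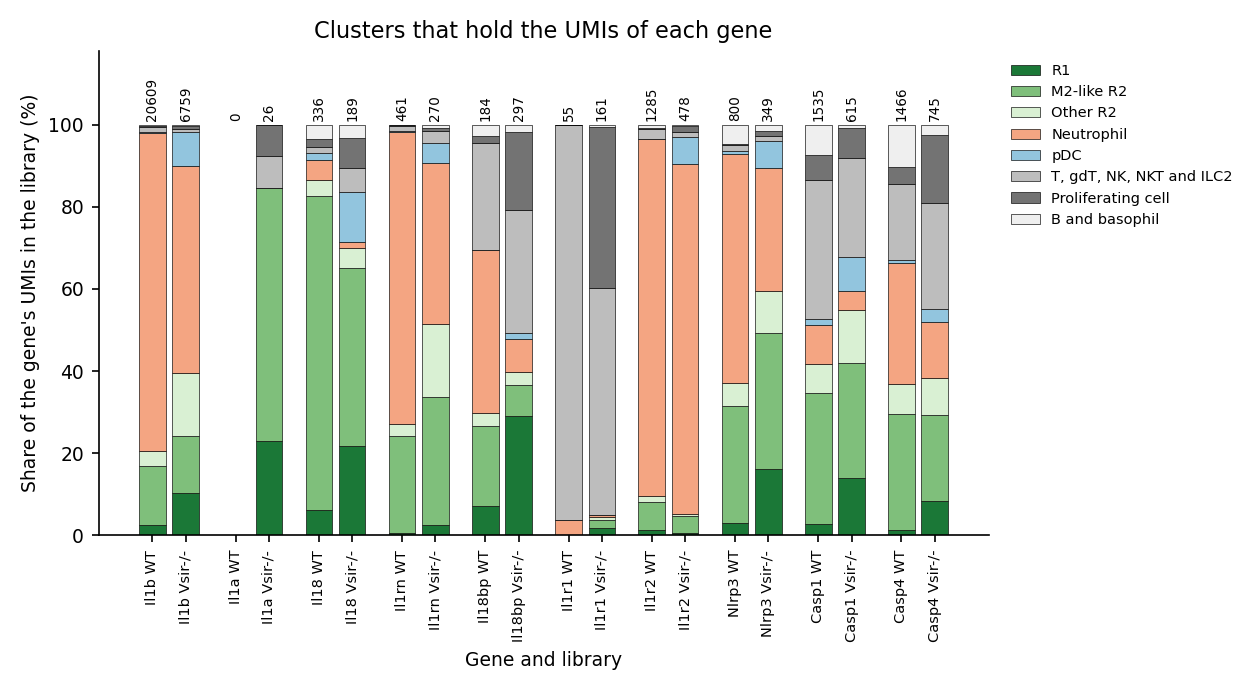
Share of each gene's UMIs (%) that lies in each group of clusters, with 1 bar per gene and library and the number of UMIs above it. Neutrophils (orange) hold 86.8% and 85.1% of Il1r2, whereas Il1r1 lies in T cells in the WT library and in proliferating and non–EM-like CD4+ clusters in the Vsir-/- library; the height of a part also follows how many cells of each type a library holds.

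Nlrp3, the inflammasome sensor, was found where Il1b was found. Neutrophils had 180 CPM (interval 164–198) in the WT library and 134 CPM (interval 109–162) in the Vsir-/- library, a log2 ratio of −0.43 (interval −0.75 to −0.12). M2-like R2 had 51.9 CPM (interval 45.4–59.1) and 69.2 CPM (interval 57.2–83.1), a log2 ratio of 0.42 (interval 0.08–0.74) that turned to −0.27 at 1000 UMIs per cell. At that depth, only 31 WT and 9 Vsir-/- cells of M2-like R2 had an Nlrp3 UMI. R1 had 33.1 and 35.0 CPM, and Other R2 had 35.1 and 46.6 CPM, with intervals of the ratio that held 0. In WT Other R2, 1 cell held 12 of the 45 Nlrp3 UMIs. The 25 WT basophils had 227 CPM (interval 156–319), with 33 UMIs in 14 cells, an interval that overlapped that of neutrophils. In contrast to Il1b, no basophil held more than 6 of these UMIs. The Vsir-/- library held only 2 basophils and no Nlrp3 UMI in them.

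Casp1 was found in both myeloid cells and lymphocytes. M2-like R2 led with 111 CPM (interval 102–122) and 103 CPM (interval 87.9–119), and Other R2 had 82.7 and 102 CPM. Within T cells, Casp1 was higher in the clusters named effector memory–like (EM-like), a description since the clusters were made from all genes. EM-like CD4+ T cells had 54.9 and 55.8 CPM and EM-like CD8+ T cells 75.3 and 84.3 CPM, whereas the non–EM-like clusters had between 1.19 and 2.47 CPM in either library. In the Vsir-/- library, 233 of the 349 cells that make up the non–EM-like CD4+ cluster lacked a T cell transcript. Neutrophils had 58.8 CPM (interval 49.7–69.2) in the WT library and 37.3 CPM (interval 24.996–53.6) in the Vsir-/- library, a log2 ratio of −0.66 (interval −1.29 to −0.07).

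Casp4 was highest in neutrophils, at 173 CPM (interval 157–191) and 130 CPM (interval 106–158), a log2 ratio of −0.42 (interval −0.74 to −0.10). In infiltrating macrophages, a difference was not detectable at this depth, with 94.0 and 93.1 CPM in M2-like R2 (log2 ratio −0.01, interval −0.29 to 0.26) and 85.1 and 86.7 CPM in Other R2 (0.03, interval −0.43 to 0.48). Casp4 was higher in the Vsir-/- library in EM-like CD4+ T cells (35.3 and 55.8 CPM, log2 ratio 0.66, interval 0.23–1.09). NK cells had 28.7 and 47.3 CPM (0.72, interval 0.02–1.37). The interval also lay above 0 in the EM-like CD8+ (6 and 9 UMIs), γδ (2 and 8 UMIs), and non–EM-like CD4+ (10 and 55 UMIs) clusters. It held 0 in ILC2 and non–EM-like CD8+ T cells. In the cluster named pDC it lay below 0 (49.1 and 19.4 CPM, −1.34, interval −2.38 to −0.23). The B cell cluster carried 42.2 and 36.2 CPM. Il1b stood at 11.8 CPM in the same WT B cells, beside 6436 CPM in neutrophils.

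A difference of 2-fold or more was then counted in the members and in all genes that reached 20 UMIs there over both libraries. In neutrophils, 0 of 7 members passed this size in either direction, where 9.99% of all genes were higher and 10.6% lower in the Vsir-/- library. In Other R2, 2 of 7 members were higher (Il1b and Il1rn) and 1 was lower (Il1r2), against 6.71% and 9.52% of all genes. Il1r2 reached the filter there with 18 WT and 3 Vsir-/- UMIs, and 1 WT cell held 11 of the 18. In M2-like R2, 1 of 8 members was higher (Il1rn) and 0 lower, against 8.11% and 7.61%. In R1, 1 of 6 members was higher (Il18bp) and 0 lower, against 13.6% and 8.78%. The median log2 ratio of the members was −0.41 in neutrophils, 0.31 in Other R2, −0.06 in M2-like R2, and −0.09 in R1, beside medians of all genes between −0.06 and 0.01.

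**Figure D5:**
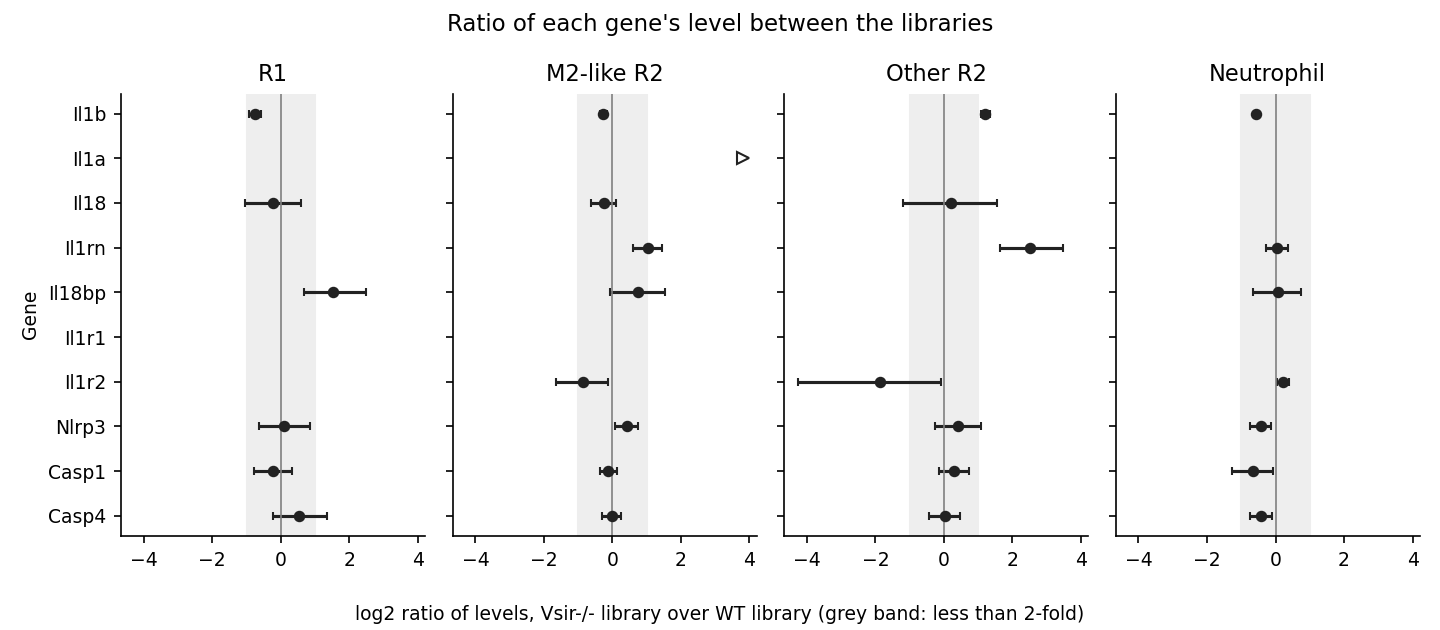
Log2 ratio of the level in the Vsir-/- library over that in the WT library for each member with at least 20 UMIs in R1, M2-like R2, Other R2, and neutrophils, with exact conditional intervals; the open triangle is the bound for Il1a, which had 0 UMIs in the WT library. Il1b lies at 1.20 in Other R2 and below 0 in the other 3 clusters.

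In neutrophils, 5 of the 7 members that passed the filter stood apart from equality by more than counting error, 4 of them lower in the Vsir-/- library (Il1b, Nlrp3, Casp1, and Casp4) and 1 higher (Il1r2). Of all genes past the same filter, the interval of the ratio lay below 0 for 17.3% and above 0 for 13.9%, a criterion that genes with many UMIs meet more easily. A list of further genes of the same pathways was counted beside them, and 45 of its 50 genes were among the features. In neutrophils, 10.6% of all genes past the filter were lower by 2-fold or more and 9.99% were higher. Of this list, 8 of 33 genes were lower and 0 were higher. Among them were Pycard, the adaptor ASC that links NLRP3 to caspase-1 (66.5 and 23.2 CPM), the DNA sensor Aim2, the guanylate-binding proteins Gbp2 (316 and 121 CPM) and Gbp5 (35.9 and 14.2 CPM), the kinase Irak4 of IL-1 receptor signalling (56.8 and 21.9 CPM), and Casp8 (49.98 and 20.6 CPM). Il18r1 and Trim30a were the others. The 6 T cell genes summed to 451 and 55.3 CPM in neutrophils of the WT and Vsir-/- library, and the 5 B cell genes to 517 and 16.7 CPM. The part of these transcripts in the lower levels was not tested. The adaptor Myd88 stood at 156 and 88.8 CPM, short of 2-fold. Ninj1, which ruptures the membrane of dying cells, was higher instead, at 125 and 208 CPM.

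Gbp2 and Gbp5, interferon-induced GTPases that promote inflammasome assembly, pointed the other way in macrophages. Gbp2 stood at 46.0 and 91.8 CPM in R1, at 94.9 and 237 CPM in M2-like R2, and at 81.2 and 172 CPM in Other R2 of the WT and Vsir-/- library. Its log2 ratios of 0.995, 1.32, and 1.08 were set against −1.39 (interval −1.71 to −1.08) in neutrophils. Gbp5 stood at 23.4 and 41.2 CPM in M2-like R2 and at 22.6 and 63.4 CPM in Other R2. Mefv, which encodes the sensor pyrin, was also higher in Other R2 (16.4 and 37.5 CPM) and lower in neutrophils (48.0 and 25.7 CPM). Pycard was higher in M2-like R2 (265 and 361 CPM) and R1 (124 and 194 CPM). Of all genes, 13.6%, 8.11%, and 6.71% were higher by 2-fold or more in R1, M2-like R2, and Other R2. Lower were 8.78%, 7.61%, and 9.52%. The median log2 ratio of the pathway list in these clusters was −0.13, 0.04, and −0.03. In the same order, 2 of 31, 2 of 38, and 3 of 32 genes of that list were higher by 2-fold or more, and 2, 2, and 3 were lower. The lower genes included the IL-18 receptor chains Il18r1 and Il18rap in M2-like R2 (8.88 and 1.19 CPM, and 17.3 and 2.98 CPM), beside summed levels of 6 T cell genes of 310 and 40.0 CPM in that cluster.

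The IL-18 receptor chains were highest in cells other than neutrophils and macrophages. Il18r1 was highest in basophils (529 CPM in the WT library) and γδ T cells (417 and 175 CPM), followed by EM-like CD4+ T cells (147 and 144 CPM) and NK cells (100 and 107 CPM). Its partner Il18rap was highest in WT basophils (447 CPM), followed by NK cells (340 and 253 CPM) and EM-like CD8+ T cells (310 and 223 CPM). Il1rap, the chain that both IL-1 receptors can recruit, was highest in neutrophils (77.4 and 60.5 CPM). Il1rl1, the receptor of IL-33 and one of the markers used for ILC2, stood at 523 and 303 CPM in ILC2. Il33 itself and the sensor Nlrp6, both known from cells outside the immune system, had 0 UMIs in the WT library and 59 and 143 UMIs in the Vsir-/- library. Of the 59 Il33 UMIs, 31 lay in non–EM-like CD4+ and proliferating cells without a T cell transcript.

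Across the 29 profiles of a cluster in a library with at least 20 cells, the genes with the pattern most like that of each member were listed, among 11262 genes with at least 200 UMIs. Profiles of a cluster in both libraries share a cell type, and profiles of a library share its free RNA, so that these rank correlations are descriptions. Il1b was most like F10 (Spearman's rho = 0.91), F630028O10Rik (0.89), and Mefv (0.89), and within the list it was most like Nlrp3 (0.88). Genes like Nlrp3 included Trpm2 (0.90) and F10 (0.89). Il18 was most like Tifa (0.94), Ifi207 (0.94), and the macrophage gene Mpeg1 (0.93). Il1rn was most like Ifi205 (0.84), Sh2b2 (0.84), and Clec5a (0.83), and Il1r2 was most like Trem1 (0.81), Rasgrp4 (0.76), and Trim30d (0.75). Il18bp was most like Upp1 (0.86), Galc (0.85), and Rab20 (0.83). Il1r1 was most like 2210011C24Rik (0.80), Card10 (0.79), and Il17rc (0.78). Genes like Casp1 included Mob1a (0.84) and Actr3 (0.78), and Casp4 was most like Ncf4 (0.79), Stx11 (0.76), and Cyba (0.75). Il1r1 was the member least like Il1b (−0.12).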

How the data were processed

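Single-cell suspensions of NTN kidneys were profiled with 10x 3′ chemistry. The authors deposited a matrix of UMI counts per gene and cell and a table of each cell's mouse, cluster, UMI total, and percent of mitochondrial UMIs. The deposited counts are raw, and the authors' percent column was used for 1 alternative filter only. The submitters' processing notes name Cell Ranger 3.1.0, Seurat 3.2.3, R 4.0.3, and the build mm9. No coordinates were taken from the files. Clusters and cell filters are those of the authors, no doublets were removed here, and their removal is not described in the sources used here. The UMI total in the table equalled the sum of the matrix in 7314 of 7314 cells.

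UMIs were summed by cluster and mouse and divided by all UMIs of the same cells. Exact Poisson intervals were computed for levels, Clopper-Pearson intervals for shares, and conditional binomial intervals for ratios (95%). They cover counting error only, and variation from PCR, between cells, and between mice is not covered. A count of 0 allows up to 3 counts. For counts of genes past 2-fold, genes with at least 20 UMIs in both libraries together entered and 0.5 UMIs were added. With 1 library per genotype there were no replicates and no tests. Reads come from the 3′ end, so levels in CPM were compared between cells. Shares of 1 gene among UMIs of several describe counts, not numbers of transcripts, and were compared between libraries and clusters. Scripts used Python 3.11.15, numpy 2.4.6, scipy 1.17.1, pandas 2.3.3, and matplotlib 3.10.9, and were tested on simulated data. Alternatives were thinning to 1000 UMIs per cell, means over cells, filters on cells and genes, and median centring. The subtraction by neutrophil transcripts, the removal of cells with Il1a, and the alternatives for further pairs of gene and cluster were added after seeing the data. All 10 members were named. Every gene of the pathway list was counted, and those with at least 100 UMIs over both libraries could be named. For each member with at least 200 UMIs, the 3 genes of highest rank correlation were named, among genes with at least 200 UMIs, except for some that are not reported here. Il33 was named outside this rule, after its values were seen. The members and lists were chosen with earlier results of these data known.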

Additional observations from a re-analysis of the deposited data

Results flagged for a closer look

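The ratio of Vsir-/- over WT pointed in different directions in different myeloid clusters for 3 genes, with counting intervals on opposite sides of 0. The difference between clusters was not tested, since each genotype had 1 library. For Il1b, the log2 ratio was 1.20 in Other R2, against −0.27 in M2-like R2, −0.56 in neutrophils, and −0.76 in R1. For Il1r2, it was 0.22 in neutrophils, against −0.85 in M2-like R2, −1.86 in Other R2, and −3.53 in R1. For Nlrp3, it was 0.42 in M2-like R2 and −0.43 in neutrophils. At 1000 UMIs per cell, the positive ratios of Il1r2 and Nlrp3 turned negative, whereas that of Il1b in Other R2 was 0.89. Few Nlrp3 UMIs remain at that depth, with 31 WT and 9 Vsir-/- cells of M2-like R2 that had one.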

How the results depend on the processing

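Of 263 alternative values, 211 stayed within the counting interval of the value reported (for counts of genes, within 1.5 times), and the others did not. The causes were not tested. The sign of a log2 ratio changed in 7, of which 5 concerned 3 ratios whose interval held 0 (Il1rn in neutrophils, Il1r1 in γδ T cells, and Casp1 in M2-like R2). The other 2 came at 1000 UMIs per cell, with log2 ratios of −0.054 for Il1r2 in neutrophils and −0.27 for Nlrp3 in M2-like R2. Few Nlrp3 UMIs remain in M2-like R2 at that depth. Thinning also gave −0.75 for Il1b in neutrophils, −0.94 in R1, −0.41 in M2-like R2, and 0.89 in Other R2, 0.36 for Il18bp in R1, 0.43 for Casp1 in M2-like R2, and −0.96 for Nlrp3 and −0.89 for Casp4 in neutrophils. Means over cells gave −0.71 for Il1b in neutrophils and 0.91 in Other R2. Without the 5% deepest cells, Il1b was at −0.63 in neutrophils and −0.072 in M2-like R2, and Il1a at 0.78 in M2-like R2. Without the highest cell, the latter were at −0.39 and 2.99. Centring on the median gene gave −0.50 for Il1b in neutrophils. Less the neutrophil ratio, Il1b was at −0.018 in M2-like R2 and 1.45 in Other R2.

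The share of Il1rn among Il1rn plus Il1b UMIs under thinning was 0% in WT R1, 2.12% in WT M2-like R2, 0.763% in WT Other R2, and 3.86% in Vsir-/- neutrophils. As a mean over cells, it was 2.08% and 2.68% in R1 (WT and Vsir-/-), 9.11% and 14.6% in M2-like R2, 10.7% in Vsir-/- Other R2, and 5.37% and 7.40% in neutrophils. Without the 5% deepest cells, it was 5.09% in Vsir-/- M2-like R2.

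With at least 100 UMIs, 0 members passed 2-fold in R1 and 1 in Other R2. With at least 1 UMI, 4 passed in R1, 3 in M2-like R2, and 5 in Other R2. Of all genes, 22.4%, 15.7%, 16.2%, and 20.6% passed in R1, M2-like R2, Other R2, and neutrophils, against 14.0%, 8.03%, 9.11%, and 11.1% at 100 UMIs and 38.8%, 33.7%, 36.9%, and 40.7% at 1 UMI. Genotype, sort, and library cannot be told apart, since each genotype had 1 library. No paired analysis was possible because the result comes from no test.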
